A study of Mus musculus with 10 samples.

Results

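The Dlk1-Meg3 region is an imprinted gene cluster on mouse chromosome 12, and 7 of its genes are described here in c-Kit-positive leukaemia cells: Dlk1, Rtl1 and Dio3, the long noncoding RNAs Meg3, Rian and Mirg, and the microRNA gene Mir679. A gene was represented by every probe set whose platform annotation gives it as the only symbol, which found 1 probe set each for 6 of the 7 genes, of 19938 genes with such a probe set and 35556 probe sets in all. Mirg had none, and 2 further probe sets carry a symbol of the region together with another one, Mirg with Mir410 and Rian with AF357355. Of the 6 genes, 5 reached the level filter for testing (a mean log2 signal of 6.23, passed by 15662 genes) and Dio3 did not. The genes were selected on measured values: earlier results of the same arrays had shown their levels on fl and wt arrays and their change with 4-OHT. Their levels and changes are therefore given as descriptions, with no test.

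The cells were mouse acute myeloid leukaemias driven by the MLL-AF9 fusion, in 5 cell lines made from independent primary leukaemias, and all 5 carried the tamoxifen-inducible Cre-ER transgene. Lines 10949, 10950 and 10986 had the conditional Zfx fl/y allele and lines 10977 and 10980 the wild-type allele (wt/y). Each line was cultured for 72 h with 10 nM 4-hydroxytamoxifen (4-OHT) or with ethanol vehicle, and the c-Kit-positive cells were then sorted. That gave 3 fl 4-OHT, 3 fl vehicle, 2 wt 4-OHT and 2 wt vehicle arrays, 1 per line and treatment. The comparison of 4-OHT with vehicle within the fl lines asks what deletion of Zfx, a zinc finger transcription factor, does to expression, and the wt lines carry Cre and receive 4-OHT without a conditional allele. No source used here names the promoter of the Cre-ER transgene. Because each line is 1 leukaemia, genotype and differences between single leukaemias cannot be told apart when 3 fl lines are set against 2 wt lines. The p-values quoted for a 4-OHT change measure how far that change varied between lines of a genotype. Those for fl minus wt differences measure the spread of arrays within groups, with a single line correlation of 0.165 for all genes. The arrays of a line thus counted nearly as separate replicates there.

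In an imprinted cluster, a gene is read from the copy inherited from 1 parent. Here Dlk1, Rtl1 and Dio3 are the protein-coding genes read from the paternal copy, and Meg3, Rian, Mirg and the many microRNAs and small nucleolar RNAs (snoRNAs) hosted by these noncoding transcripts are read from the maternal copy. Dlk1 encodes a membrane protein related to the Notch ligands, Rtl1 derives from a retrotransposon, and Dio3 encodes a deiodinase that inactivates thyroid hormone. The cluster is known for its activity in the embryo and in tissue and blood stem cells, and Meg3 is known for its silencing in several cancers.

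The promoters of Dlk1 and Meg3 are shown because these 2 genes had the largest fl minus wt level differences of the 6, and they are the first gene of each parental class in the gene order of RefSeq (assembly GRCm38.p6). Each line holds 300 bases, 250 before the start and 50 after it, on the plus strand, and the capitals in the Meg3 promoter mark the motif matches described next.
Dlk1, chr12:109452573-109452872: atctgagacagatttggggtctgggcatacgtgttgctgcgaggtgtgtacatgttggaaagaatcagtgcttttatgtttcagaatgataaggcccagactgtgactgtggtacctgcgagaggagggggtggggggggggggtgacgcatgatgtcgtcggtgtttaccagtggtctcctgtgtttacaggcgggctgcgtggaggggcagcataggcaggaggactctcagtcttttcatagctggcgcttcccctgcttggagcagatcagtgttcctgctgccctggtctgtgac
Meg3, chr12:109540746-109541045: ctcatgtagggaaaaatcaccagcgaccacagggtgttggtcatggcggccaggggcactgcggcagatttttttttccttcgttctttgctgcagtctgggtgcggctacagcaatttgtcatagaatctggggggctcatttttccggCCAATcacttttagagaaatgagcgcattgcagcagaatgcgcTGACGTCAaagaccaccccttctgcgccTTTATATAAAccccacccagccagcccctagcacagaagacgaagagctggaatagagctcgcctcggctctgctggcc
The letters of 5 motifs were searched on both strands. These were the cAMP response element TGACGTCA, the TATA box TATAAA, the CCAAT box as CCAAT, the GC box as GGGCGG and AGGCCT, the core of the motif bound by Zfx. The Meg3 window held the cAMP response element 57 bases before the start, CCAAT 100 bases before it, and TATAAA on both strands in overlapping positions 29 and 25 bases before it. Of the 32851 mouse promoters in the table, 1.79% held the cAMP response element, 13.6% TATAAA and 37.4% CCAAT. The Dlk1 window held none of the 5 motifs. None of the 6 windows available for the region, including a second Meg3 start, Rian, Mirg and Dio3, held the Zfx core, which 10.3% of all promoters did. The GC content was 55.7% for Dlk1, 53.7% for Meg3 and 69.0% for Dio3, against a median of 52.7% over all promoters. These matches are letters in a window, and binding was not measured.

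The mature microRNAs of the genes that recur in the results are printed with the seed (bases 2 to 8) in capitals, as RefSeq gives them. Mir679 is shown as the microRNA among the 6 genes, Mir134, Mir382 and Mir377 as those with the largest fl minus wt difference under 4-OHT outside them, and Mir410 because it shares a probe set with Mirg.
mmu-miR-679-5p: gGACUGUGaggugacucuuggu
mmu-miR-679-3p: aGCAAGGUccuccucacaguag
mmu-miR-134-5p: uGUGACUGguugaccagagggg
mmu-miR-134-3p: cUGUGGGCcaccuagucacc
mmu-miR-382-5p: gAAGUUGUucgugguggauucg
mmu-miR-382-3p: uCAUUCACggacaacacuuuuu
mmu-miR-377-5p: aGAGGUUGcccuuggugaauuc
mmu-miR-377-3p: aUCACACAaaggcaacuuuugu
mmu-miR-410-5p: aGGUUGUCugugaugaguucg
mmu-miR-410-3p: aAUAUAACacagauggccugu
mmu-miR-494-5p: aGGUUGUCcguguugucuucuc
The last sequence is added because its seed is the same as that of mmu-miR-410-5p. RefSeq lists 58 hairpins between Dlk1 and Dio3 with 113 mature sequences, whose seeds take 104 forms. Only 9 of these seeds were shared, each by a pair of mature sequences, and the seeds of the Mir679, Mir134, Mir382 and Mir377 products occurred once each in the region. No source used here says whether the probe set of a microRNA gene reads the mature RNA, its precursor or the host transcript.

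One library stood apart before any result is read. The vehicle array of line 10986 scored 49.4 on the first principal component, which held 47.2% of the variance, while the other 9 arrays scored between -20.4 and 23.0. The 4-OHT minus vehicle difference of this line had an SD of 0.497 over genes, against 0.174 to 0.263 in the other 4 lines. Values are therefore mostly given per line, and the group values of the 6 genes and 2 shared probe sets also without line 10986. The Zfx probe set does not show the deletion: its 4-OHT minus vehicle change averaged 0.37 ± 0.40 in fl lines (SD, n = 3) and -0.12 ± 0.14 in wt lines (SD, n = 2), and no source used here places its probes relative to the deleted part. All 12 listed markers of c-Kit-positive myeloid leukaemia cells lay above the level filter on average, with Kit between 8.35 and 9.94 log2. The filter passed 15662 of 19938 genes and 8 of 10 stromal and fibroblast markers, so passing it does not establish cell identity. Within the list, Mpo, Elane and Spi1 were lower on every fl array than on any wt array. The share of all genes with that arrangement was not counted, so nothing is read from it. Mpo read 11.29 to 12.32 log2 on fl arrays and 12.92 to 13.62 on wt arrays. The remaining listed markers overlapped between genotypes, with Cd34 between 8.41 and 12.33. Over all tested genes, limma called 24 genes changed by 4-OHT in the fl lines (0.153%), 101 different between fl and wt lines under 4-OHT (0.645%) and 3 under vehicle (0.0192%), at an adjusted p of 0.05. In bulk cells, fewer cells expressing a gene and less RNA per cell cannot be told apart, here and in what follows.

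Dlk1, the paternally expressed Notch-like gene, was the one with the widest gap between genotypes. Under 4-OHT the log2 signal of Dlk1 reached 11.44 (line 10949), 11.33 (line 10950) and 11.61 (line 10986) in the fl lines, and 8.51 (line 10977) and 8.22 (line 10980) in the wt lines. Under vehicle it was 10.77, 10.41 and 11.39 in the 3 fl lines in the same order, and 8.97 and 8.27 in the wt lines. All 6 fl arrays lay above all 4 wt arrays, by at least 1 log2 unit, with no overlap. The fl minus wt difference was 3.10 log2 units under 4-OHT, or 8.55-fold, from group means of 11.46 ± 0.14 (SD, n = 3) and 8.37 ± 0.21 (SD, n = 2). Under vehicle, where no 4-OHT was added and Cre activity was not measured, it was 2.24 log2 units, or 4.71-fold. The vehicle means were 10.86 ± 0.50 (SD, n = 3) in fl lines and 8.62 ± 0.50 (SD, n = 2) in wt lines. Among the 15662 genes tested, 2 had a difference at least as large as that of Dlk1 under 4-OHT and 4 under vehicle, each count including Dlk1. Without line 10986 the difference was 3.02 log2 units under 4-OHT and 1.97 under vehicle.

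Dlk1 was also the one gene of the 6 whose change with 4-OHT ran in opposite directions in every line of each genotype. The 4-OHT minus vehicle change was 0.66, 0.93 and 0.22 log2 units in the fl lines 10949, 10950 and 10986, and -0.46 and -0.05 in the wt lines 10977 and 10980. The means were 0.60 ± 0.36 in fl lines (SD, n = 3) and -0.26 ± 0.29 in wt lines (SD, n = 2). Without line 10986 the fl mean was 0.80. The smallest fl change belongs to line 10986, whose vehicle array stood apart and already had the highest vehicle level of Dlk1. Of all genes, 3.82% were higher in the 3 fl pairs and lower in both wt pairs. In order of group mean, Dlk1 was highest in fl 4-OHT, then fl vehicle, then wt vehicle and wt 4-OHT. The 2 fl groups differed by more than 1 SD of the fl vehicle group, with the lowest 4-OHT array below the highest vehicle array, and the 2 wt groups lay within their spread.

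Rtl1, the retrotransposon-derived gene of the paternal class, sat near the filter and moved little. It read 6.66, 6.59 and 6.71 log2 in lines 10949, 10950 and 10986 under 4-OHT, and 6.25 and 6.31 in the wt lines. Under vehicle the fl lines read 6.53, 6.35 and 6.77, and the wt lines 6.40 and 6.17. The fl and wt arrays were apart under 4-OHT and overlapped under vehicle, with differences of 0.37 and 0.26 log2 units. Without line 10986 the differences were 0.34 under 4-OHT and 0.15 under vehicle. The change with 4-OHT was 0.11 ± 0.15 in fl lines (SD, n = 3) and 0.00 ± 0.21 in wt lines (SD, n = 2), and neither mean was larger than its spread. The fl mean without line 10986 was 0.18. Rtl1 lies opposite maternally expressed antisense transcripts, and no source used here says whether the probe set reads a single strand.

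Dio3, the last gene of the cluster, was close to the array background throughout. Its log2 signal lay between 5.78 and 5.98 on the 10 arrays, a range of 0.20, and the genotypes overlapped under both treatments. The mean difference between fl and wt lines was 0.06 log2 units under 4-OHT and 0.04 under vehicle, and 0.05 and 0.04 without line 10986. Its change with 4-OHT in fl lines was 0.04 ± 0.12 (SD, n = 3), or 0.02 without line 10986. At this signal, a low level and none cannot be told apart.

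**Figure D1:**
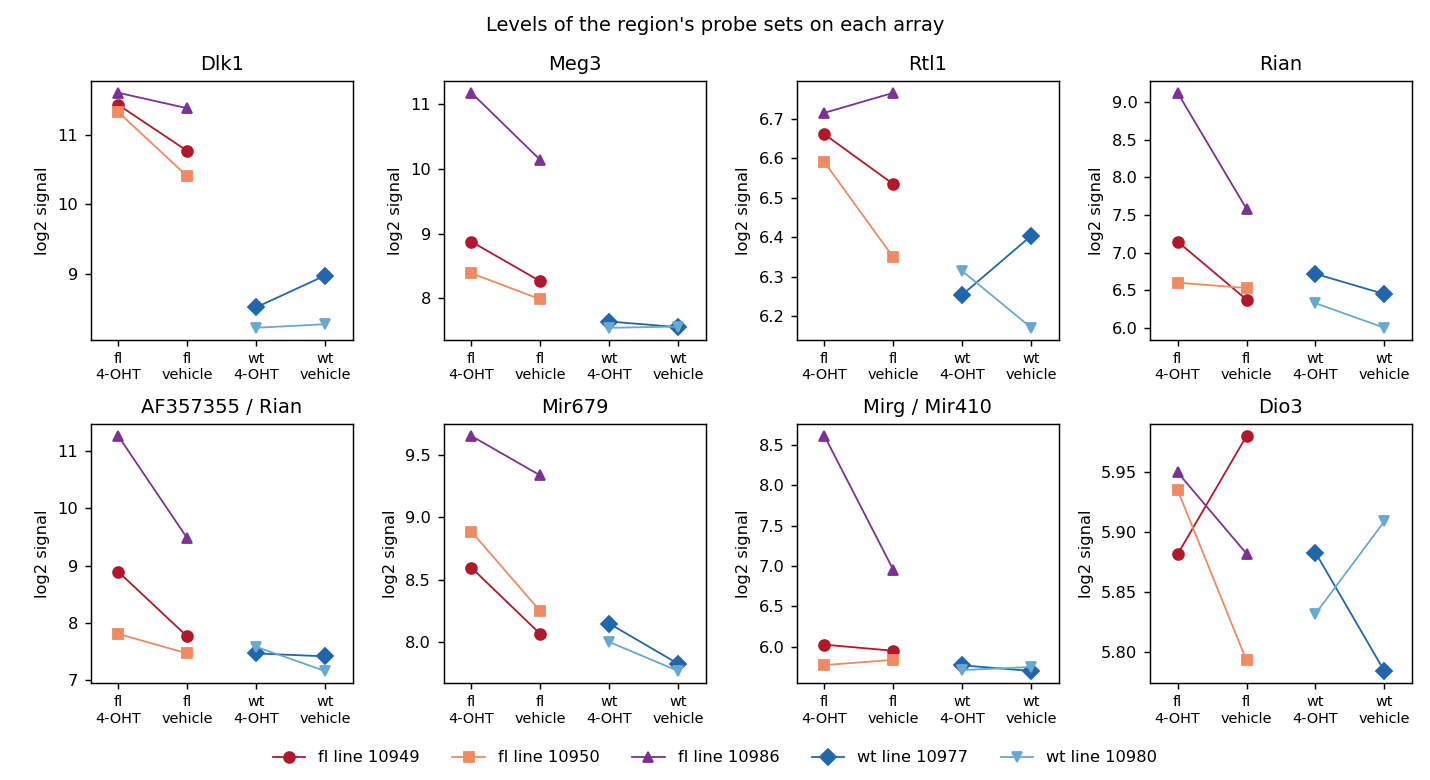
Log2 signal of the 6 genes and the 2 shared probe sets on each of the 10 arrays, with fl groups left of wt groups and 4-OHT left of vehicle; each line joins the 2 arrays of 1 cell line, and the vertical scale differs between panels. Dlk1 separates the 3 fl lines from both wt lines, while Meg3, Rian and Mirg / Mir410 are set mostly by line 10986 and Dio3 spans 0.20 log2 units.

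Meg3, the maternally expressed noncoding RNA next to Dlk1, was higher in every fl line than in either wt line, and by far the most in line 10986. Under 4-OHT its log2 signal was 8.87 (line 10949), 8.39 (line 10950) and 11.17 (line 10986) in the fl lines, and 7.64 (line 10977) and 7.55 (line 10980) in the wt lines. Under vehicle the fl lines read 8.26, 7.99 and 10.13 and the wt lines 7.56 and 7.57. The 6 fl arrays lay above the 4 wt arrays, and the 4 wt arrays spanned less than 0.10 log2 units. Dlk1 and Meg3 were thus the 2 of 6 genes whose 6 fl arrays all exceeded the 4 wt arrays, an arrangement that 2.67% of all genes had.

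The size of the Meg3 difference depended on line 10986. The fl minus wt difference was 1.88 log2 units (3.68-fold) under 4-OHT and 1.23 (2.35-fold) under vehicle, and without line 10986 it was 1.04 and 0.56. Averaged over both treatments, line 10986 lay 3.07 log2 units above the mean of the 4 wt arrays, line 10949 lay 0.99 above it and line 10950 0.61. For Dlk1 the same figures were 3.01, 2.61 and 2.38, so the fl lines were near each other for Dlk1 and far apart for Meg3. With 4-OHT, Meg3 was higher in all 3 fl pairs, by 0.61, 0.40 and 1.04 log2 units, a mean of 0.68 ± 0.32 (SD, n = 3), or 0.51 without line 10986. The wt pairs changed by 0.09 and -0.02. Its range over the 10 arrays was 3.62 log2 units, which 19 of the 15662 tested genes reached.

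Rian, a noncoding RNA that hosts snoRNAs, followed the same order of fl lines under 4-OHT at a smaller size. Under vehicle, line 10950 was above line 10949. Under 4-OHT it read 7.15, 6.60 and 9.13 log2 in lines 10949, 10950 and 10986, and 6.72 and 6.33 in the wt lines. With vehicle the fl lines read 6.37, 6.53 and 7.58, and the wt lines 6.45 and 6.0. Both arrays of line 10986 were above every other array, and the remaining fl arrays as a set overlapped with the wt arrays under both treatments. The change with 4-OHT was 0.77, 0.07 and 1.54 log2 units in the fl lines and 0.27 and 0.33 in the wt lines, so all 5 lines were higher with 4-OHT. The fl mean of 0.80 ± 0.74 (SD, n = 3) was hardly larger than its spread, and was 0.42 without line 10986. The fl minus wt difference was 1.10 log2 units under 4-OHT and 0.60 under vehicle, and 0.35 and 0.23 without line 10986.

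The probe set annotated to both Rian and AF357355 was also highest in line 10986, and its changes in the fl lines were larger. Unlike for Rian, its fl arrays lay above the wt arrays within each treatment. Line 10949 was above line 10950 under vehicle too. It read 8.89, 7.81 and 11.26 log2 in the fl lines under 4-OHT and 7.47 and 7.58 in the wt lines. Its vehicle levels were 7.77, 7.47 and 9.48 in the fl lines, and 7.42 and 7.16 in the wt lines. Its 4-OHT change was 1.13, 0.34 and 1.78 in the fl lines, a mean of 1.08 ± 0.72 (SD, n = 3), and 0.24 ± 0.26 in the wt lines (SD, n = 2). The fl minus wt difference was 1.80 under 4-OHT and 0.95 under vehicle. Without line 10986 it was 0.83 and 0.33, and the fl change 0.73.

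The probe set shared by Mirg and Mir410, at the far end of the cluster, was raised mainly in line 10986. Line 10986 read 8.61 log2 under 4-OHT and 6.95 under vehicle. Lines 10949 and 10950 read 6.03 and 5.77 under 4-OHT and 5.95 and 5.84 under vehicle, and the 4 wt arrays 5.70 to 5.77. Lines 10949 and 10950 were thus within 0.40 log2 units of the wt arrays, and below the level filter. Every fl array was still above the 4 wt arrays, though line 10950 under 4-OHT (5.774) was nearly level with the highest of them (5.770). With 4-OHT the level was higher by 1.66 in line 10986, and the change was 0.08 and -0.06 in the remaining fl lines. The fl minus wt difference of 1.06 under 4-OHT and 0.52 under vehicle was 0.16 and 0.17 without line 10986, and the fl change was 0.01 in place of 0.56.

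Mir679, whose mature sequences are printed above, had smaller differences in change between the fl lines than Meg3 or Rian. It read 8.60, 8.89 and 9.65 log2 in lines 10949, 10950 and 10986 under 4-OHT, and 8.15 and 8.0 in the wt lines. Under vehicle it read 8.06, 8.25 and 9.34 in the fl lines, and 7.82 and 7.77 in the wt lines. The fl arrays were above the wt arrays within each treatment, and across treatments the vehicle array of line 10949 fell below a wt 4-OHT array. The 4-OHT change was 0.53, 0.64 and 0.32 in fl lines and 0.32 and 0.23 in wt lines, with means of 0.50 ± 0.16 (SD, n = 3) and 0.28 ± 0.06 (SD, n = 2). All 5 lines were therefore higher with 4-OHT, and the fl and wt changes touched at 0.32. The fl minus wt difference was 0.97 log2 units under 4-OHT and 0.75 under vehicle. Without line 10986 it was 0.67 and 0.36, and the fl change 0.59.

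**Figure D2:**
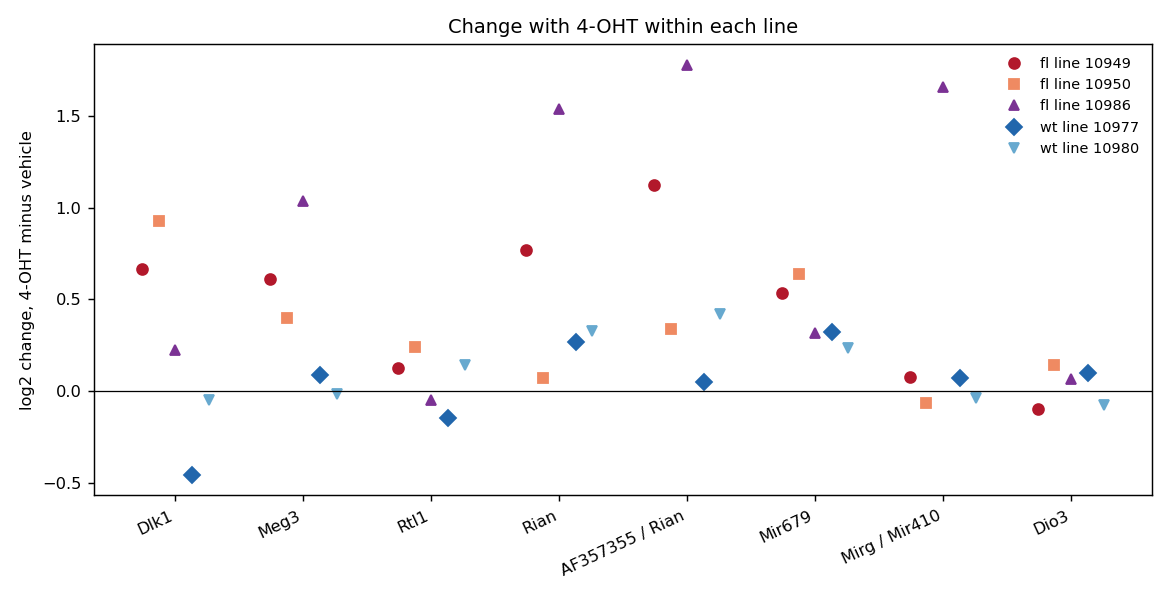
Change in log2 signal with 4-OHT (4-OHT minus vehicle) for each of the 5 cell lines, 1 point per line, for the 6 genes and the 2 shared probe sets. Dlk1 is above 0 in the 3 fl lines and below it in both wt lines, and the triangles of line 10986 are the highest points for Meg3, Rian and both shared probe sets but not for Dlk1.

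Counted over the 6 genes, 4 had their 3 fl arrays above both wt arrays under 4-OHT (Dlk1, Meg3, Rtl1 and Mir679), as had 13% of all genes, and 3 did under vehicle (Dlk1, Meg3 and Mir679), as had 19%. Higher with 4-OHT in all 3 fl pairs were 4 (Dlk1, Meg3, Rian and Mir679), against 12.5% of all genes. The highest array was the 4-OHT array of line 10986 for 4 of 6 (Dlk1, Meg3, Rian and Mir679), against 5.87%. Both arrays of that line were above the other 8 arrays for Meg3, Rtl1, Rian and Mir679, against 2.69%. Since the genes were chosen with these levels known, nothing is read from the counts.

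The levels of the 6 genes ran together to different degrees over the 10 arrays, which come from 5 lines and so are not independent points. Pearson's r was 0.944 between Meg3 and Rian and 0.942 between Meg3 and Mir679, all of the maternal class. It was 0.911 between Dlk1 and Rtl1, both of the paternal class. Across the classes and without Dio3, it ran from 0.622 (Dlk1 and Rian) to 0.847 (Rtl1 and Mir679). There it was 0.762 between Dlk1 and Meg3 and 0.839 between Rtl1 and Meg3. Dio3, near background, had r between 0.313 and 0.434 with the others, the highest with Meg3 of the other class. Dio3 aside, the higher values within a parental class came with the pattern of lines described above. In it, Dlk1 was high in all 3 fl lines and Meg3 and Rian mostly in line 10986.

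Outside the 6 genes, the genes with the level pattern most like Dlk1 over the 10 arrays were Rbfox2, an RNA-binding splicing regulator (r = 0.979), Plekhh2 (r = 0.960) and Tpst1, a tyrosine sulfotransferase (r = 0.960). For Meg3 they were 3 microRNA genes of the same cluster, Mir485 (r = 0.988), Mir134 (r = 0.970) and Mir487b (r = 0.966). For Rian they were Mir127 (r = 0.982) and Mir134 (r = 0.976) of the cluster and Il6st, the signalling receptor of the IL-6 family (r = 0.977). Those for Rtl1 were the glycolytic gene Tpi1 (r = 0.966), the snoRNA gene DQ267102 of the cluster (r = 0.933) and the transcription factor Pou2f2 (r = 0.932). For Mir679 they were Plxnb2, a semaphorin receptor (r = 0.981), Osmr, the oncostatin M receptor (r = 0.972), and Chrm4, a muscarinic receptor (r = 0.969). With a few lines setting every pattern, such values describe likeness over these arrays and were not tested.

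The rest of the cluster was read by 44 further probe sets between Dlk1 and Dio3 in RefSeq gene order, 39 of them for single microRNA genes. All 44 had a higher mean in fl than in wt lines under 4-OHT, and 41 did under vehicle, where 57.9% and 60.6% of all genes did. The 3 fl arrays were above both wt arrays for 28 of 44 under 4-OHT and 24 under vehicle, against the 13% and 19% given above. For 12 of 44 all 6 fl arrays were above the 4 wt arrays, against 2.67% of all genes. The probe sets lie on shared host transcripts and are not separate observations, and 17 of the 44 passed the level filter. The median fl minus wt difference of the 44 was 0.31 log2 units under 4-OHT and 0.16 under vehicle, against 0.02 and 0.05 over all genes.

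Line 10986 carried most of that difference. Its 4-OHT array was the highest of the 10 for 39 of the 44 probe sets, against 5.87% of all genes, and both its arrays were above the other 8 for 26, against 2.69%. The median of the 44, relative to the mean of the wt arrays, was 0.52 log2 units in line 10986, 0.09 in line 10949 and 0.08 in line 10950, with 0.05, 0.01 and 0.04 over all genes. Without line 10986, the 4 arrays of the remaining fl lines were still above the 4 wt arrays for 12 of 44, against 4.1% of all genes. Lines 10949 and 10950 were both higher with 4-OHT for 28 of 44, against 35%.

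**Figure D3:**
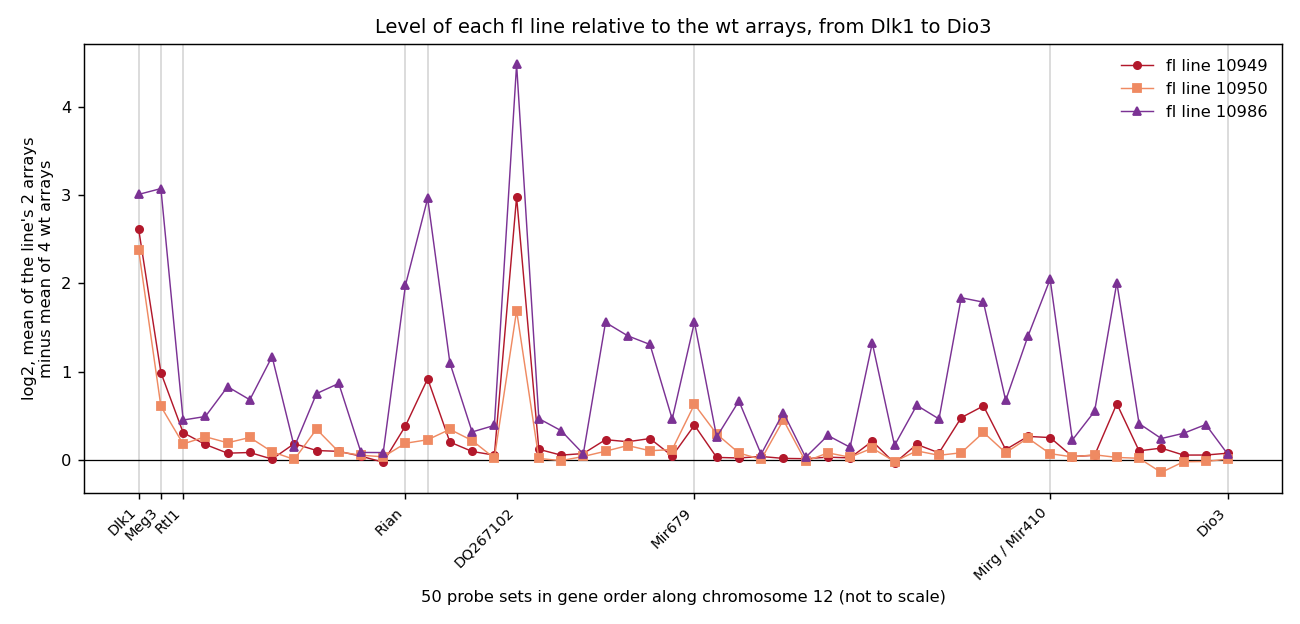
Difference in log2 signal between the mean of each fl line's 2 arrays and the mean of the 4 wt arrays, for 50 probe sets in gene order from Dlk1 to Dio3 (not to scale); grey lines mark the probe sets of the 6 genes and the 2 shared ones. Line 10986 is raised across the cluster, while lines 10949 and 10950 are furthest from 0 at Dlk1 and the snoRNA gene DQ267102. Both are near 0 over most microRNA genes. Line 10949 is also raised at Meg3 (0.99) and the Rian and AF357355 probe set (0.92), and line 10950 at Mir679 (0.63) and Meg3 (0.61).

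DQ267102, an snoRNA gene between Rian and Mir679, had the widest fl minus wt difference of all 50 probe sets and is named here after its values were seen. It read 11.88, 10.63 and 13.39 log2 in lines 10949, 10950 and 10986 under 4-OHT, and 8.97 and 8.60 in the wt lines. Under vehicle it read 11.36, 10.04 and 12.86 in the fl lines, and 8.69 and 8.32 in the wt lines. All fl arrays were above all wt arrays by more than 1 log2 unit, as for Dlk1. The difference was 3.18 log2 units under 4-OHT (SE 0.81) and 2.91 under vehicle (SE 0.81), and neither passed limma's test over all genes (adjusted p = 0.138 and 0.366). The 4-OHT change was near the same in each line of a genotype, 0.52, 0.60 and 0.53 in the fl lines and 0.28 and 0.28 in the wt lines. The fl change of 0.55 (SE 0.09) had a limma adjusted p of 0.0856, and the fl minus wt change of 0.27 (SE 0.14) one of 0.889.

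The microRNA genes outside Mir679 showed the same dependence on line 10986. All 39 had a higher fl than wt mean under 4-OHT, and 36 under vehicle, with medians of 0.29 and 0.15 log2 units. The largest differences under 4-OHT were 1.47 for Mir377, 1.22 for Mir134 and 1.22 for Mir382, whose sequences are printed above. Mir377 read 6.33, 5.39 and 8.83 log2 in lines 10949, 10950 and 10986 under 4-OHT, and 5.36 and 5.40 in the wt lines. Under vehicle it read 5.71, 5.43 and 5.95 in the fl lines, and both wt lines read 5.38. Its level in line 10986 was thus raised mainly on the 4-OHT array, and line 10950 did not differ from the wt lines by more than 0.10 log2 units.

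Mir382 read 6.02, 5.48 and 8.22 log2 in the fl lines under 4-OHT, and 5.37 and 5.35 in the wt lines. Under vehicle it read 5.71, 5.46 and 6.23 in the fl lines, and 5.45 and 5.38 in the wt lines. Like Mir377 it averaged below the level filter and was not tested. Mir134, which passed the filter, read 8.61, 8.28 and 10.22 log2 in the fl lines under 4-OHT, and 7.93 and 7.71 in the wt lines. Under vehicle it read 8.12, 7.85 and 8.86 in the fl lines, and 7.72 and 7.65 in the wt lines. Mir134 was higher with 4-OHT in every line, by 0.48, 0.43 and 1.36 log2 units in fl lines and by 0.21 and 0.05 in wt lines. Its fl change of 0.76 (SE 0.19) did not pass limma's test (adjusted p = 0.175).

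Of the 39 microRNA genes, 14 could be tested and none passed limma's test at an adjusted p of 0.05 in the 4-OHT change of either genotype, in the difference between the changes, or between fl and wt lines under either treatment. At an unadjusted p of 0.05, 4 of the 14 were higher in the fl change and 2 in the fl minus wt difference under 4-OHT, with 0 lower, and 12.3% and 10.8% of all tested genes passed in either direction. The median fl change of the 14 was 0.23 log2 units, against 0.00 over all genes tested, and the wt change 0.02, also against 0.00. In line 10986 the median change of all 39 was 0.45, against -0.08 over all genes. In lines 10949 and 10950 it was 0.10 and 0.09, against 0.00 and 0.04.

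**Figure D4:**
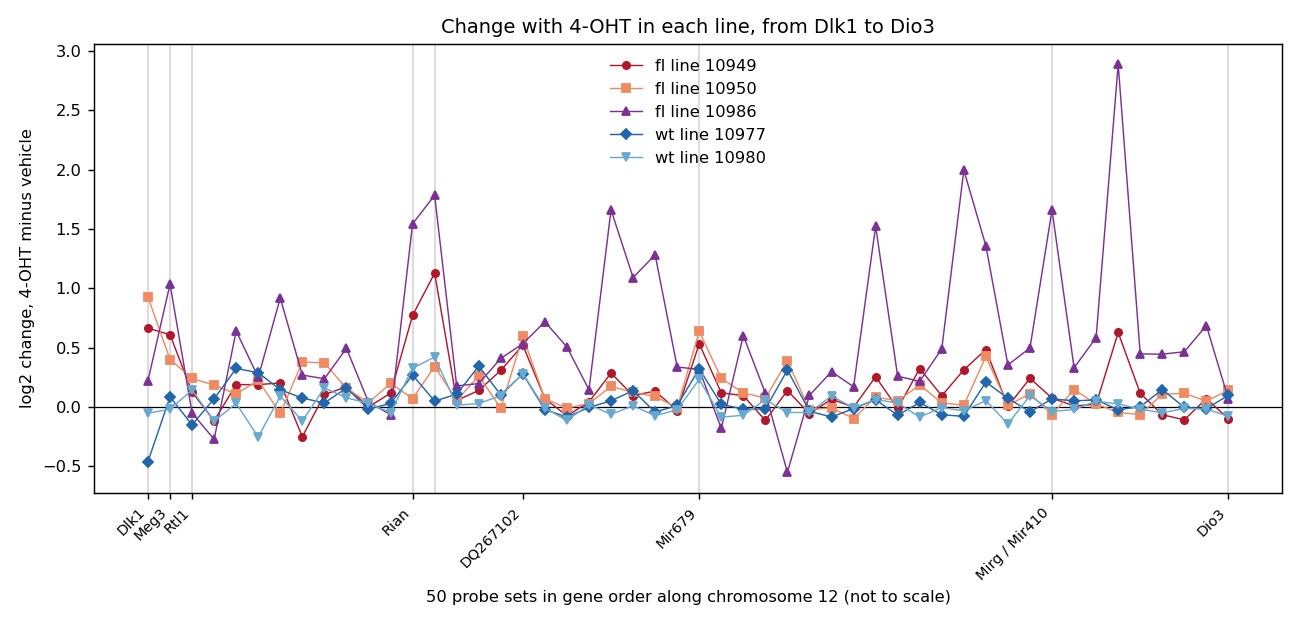
Change in log2 signal with 4-OHT (4-OHT minus vehicle) in each of the 5 lines for the same 50 probe sets in gene order (not to scale); grey lines mark the 6 genes and the 2 shared probe sets. Line 10986 lies above the other lines at most probe sets, with Mir377 the highest at 2.89, and the wt lines stay near 0 over most of the cluster.

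Genes on both sides of the cluster were listed to see where it ends. Of 23 listed flanking genes, 20 could be tested and none passed limma's test in any of the 5 comparisons. Unadjusted, 0 of them passed in the fl change and 1, lower, in the fl minus wt difference under 4-OHT, against 12.3% and 10.8% of all tested genes. Under vehicle, 2 passed unadjusted in that difference, both higher, against 9.8% of all tested genes. Their median fl minus wt difference was -0.03 log2 units under 4-OHT and 0.01 under vehicle. The span was -0.38 to 0.17 under 4-OHT and -0.48 to 0.31 under vehicle. The largest fl change among them was 0.33 for Cinp (SE 0.22, limma adjusted p = 0.641), which was 1.01 in line 10986 and -0.09 and 0.06 in lines 10949 and 10950.

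Imprinted genes elsewhere in the genome, 37 of 54 listed, did not pass the test either, and their median fl minus wt difference was -0.01 log2 units under 4-OHT and 0.00 under vehicle. The lowest limma adjusted p over all of them was 0.0967, for an fl minus wt difference under 4-OHT. Unadjusted, 1 was higher and 4 were lower in that comparison, and 1 was higher and 3 lower in the fl change, against 10.8% and 12.3% of all tested genes. Trappc9 had an fl change of -0.39 log2 units (SE 0.10, limma adjusted p = 0.168) and Tssc4 one of -0.46 (SE 0.11, limma adjusted p = 0.177), with all 3 fl pairs lower. A list of imprint regulators held genes that act on imprints or on DNA methylation in either direction. None of its 18 tested genes (of 19 listed) passed limma's test. In the fl change, 1 was lower at an unadjusted p of 0.05, against the same 12.3%. Tet3, which oxidises methylated cytosine, had the largest fl change at -0.48 (SE 0.14, limma adjusted p = 0.217), from -0.28, -0.67 and -0.51 in the 3 fl lines. Dnmt1, the maintenance methyltransferase, had an fl minus wt difference of -0.43 log2 units under 4-OHT (SE 0.25, limma adjusted p = 0.687). Its 4-OHT change was 0.05, -0.15 and -0.66 in lines 10949, 10950 and 10986.

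Among 22 Notch pathway genes, the pathway to which Dlk1 is related, none passed limma's test in any comparison, and the median fl minus wt difference under 4-OHT was 0.05 log2 units. Unadjusted, 2 were higher and 1 lower in the fl change, against 12.3% of all tested genes in either direction. Adam17, the sheddase that releases the extracellular part of Dlk1 and of Notch receptors, averaged 11.29 ± 0.17 log2 in fl 4-OHT, 10.49 ± 0.28 in fl vehicle (SD, n = 3 each), 10.42 ± 0.06 in wt 4-OHT and 10.46 ± 0.01 in wt vehicle (SD, n = 2 each). Its change was 0.80 log2 units in fl lines (SE 0.17, limma adjusted p = 0.125), higher in 3 of 3 pairs. By line it was 0.66 (line 10949), 0.44 (line 10950) and 1.31 (line 10986), the largest in the line whose vehicle array stood apart. The fl minus wt difference of Adam17 under 4-OHT was 0.87 (SE 0.17, limma adjusted p = 0.0711). Mfng, a glycosyltransferase that modifies Notch receptors, had an fl change of -0.54 log2 units (SE 0.11, limma adjusted p = 0.116), lower in 3 of 3 pairs. It changed by -0.74, -0.43 and -0.46 in lines 10949, 10950 and 10986. Notch2, a receptor, had an fl minus wt difference of 0.46 under vehicle (SE 0.18, limma adjusted p = 0.499).

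The thyroid hormone genes, the pathway of Dio3, had 8 testable members of 14 listed. None passed limma's test, and 2 were lower in the fl change at an unadjusted p of 0.05, which 12.3% of all tested genes passed. Rxrb, a partner of the thyroid hormone receptors, had an fl change of -0.48 log2 units (SE 0.11, limma adjusted p = 0.152) and the receptor gene Thra one of -0.29 (SE 0.11, limma adjusted p = 0.339). Both were lower in all 3 fl pairs. In lines 10949, 10950 and 10986, Rxrb changed by -0.49, -0.31 and -0.65 and Thra by -0.26, -0.27 and -0.33. Dio2, the deiodinase that activates the hormone, averaged 8.19 ± 0.46 log2 in fl 4-OHT (SD, n = 3) and 7.67 ± 0.37 in wt 4-OHT (SD, n = 2), a difference of 0.52 (SE 0.39, limma adjusted p = 0.843).

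Dlk1 is a known marker of fetal hepatoblasts and some stromal cells, so lists of markers for other cell types were read beside it. The mean level of 10 stromal and fibroblast markers was 7.02 to 7.39 log2 on the fl 4-OHT arrays and 7.01 to 7.05 on the wt 4-OHT arrays, with Lepr and Lum below the level filter. One of the 10, Thy1, which lymphoid and stem cells also express, was higher on 5 of the 6 fl arrays than on any wt array. It read 9.21, 10.06 and 8.56 log2 in the fl lines 10949, 10950 and 10986 under 4-OHT and 8.60, 8.81 and 7.73 under vehicle, and 7.57 to 7.87 on the wt arrays. Thy1 was higher with 4-OHT in all 3 fl pairs. Pdgfrb, of the same list, went the other way in wt line 10980. It read 8.30 under 4-OHT and 8.10 under vehicle there, against at most 7.82 on the fl arrays. Wt line 10977 read 7.56 and 7.58, within the fl range. For 6 hepatoblast markers the mean level was 6.77 to 7.31 on fl 4-OHT arrays and 6.68 to 6.72 on wt 4-OHT arrays, with Alb and Ttr below the filter. The highest of these was line 10950, where Hnf4a read 10.30 under 4-OHT and 9.86 under vehicle against at most 8.16 on the other arrays. Endothelial markers averaged 7.04 to 7.21 on fl 4-OHT arrays and 6.94 to 6.97 on wt 4-OHT arrays, with 3 of 6 above the filter. In line 10986 the stromal mean was 7.02 under 4-OHT and 7.12 under vehicle, where the fl vehicle arrays spanned 7.01 to 7.15. The part of other cells in the levels of the cluster was not tested beyond these values.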

How the data were processed

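Total RNA of c-Kit-positive cells was measured on 10 1-colour arrays of 5 lines. Per the submitters' processing notes, the deposited intensity values were made by the authors with RMA, and their range shows a linear scale. RMA corrects background, brings all arrays to one distribution and summarises the probes of a probe set, so compressed differences at low signal are possible. Median signals were 144.7 to 158.2, and arrays have no read depth: their number and the background limit precision. Log2 was taken here, with all per-sample columns used. Probe sets were named from the platform annotation, and RefSeq (GRCm38.p6) gave gene order and sequences. The files name no build.

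A gene was tested on its brightest single-symbol probe set, where the mean reached the 25th percentile. limma 3.58.1 in R 4.3.3 was run on all 10 arrays, two-sided, and p-values were adjusted by Benjamini-Hochberg over 15662 genes. Changes with 4-OHT were fitted with the line as a fixed block, which pairs the arrays because both come from the same leukaemia line, and genotypes with a random line effect (correlation 0.165). The deviations of the 2 arrays of a line from their group means correlated at 0.782 (line 10949), 0.224 (line 10950), -0.064 (line 10986) and 0.427 (both wt lines). With 2 wt lines the deviations mirror each other, so their value is the same by construction. The scripts were tested on simulated data. Named genes were all members, the 3 genes of highest Pearson's r per member, and the extremes of listed pathways. The members and lists were chosen with earlier results of these data known. Alternatives were the block, filters, scaling, variance prior and leaving out each line.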

Additional observations from a re-analysis of the deposited data

Results flagged for a closer look

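Dlk1 had a 4-OHT change that was larger in fl than in wt lines by 0.86 log2 units. It drew attention because every fl pair was higher with 4-OHT (0.66, 0.93 and 0.22 log2 units) and every wt pair was lower (-0.46 and -0.05). The gene was chosen with these values known, so the difference was not tested. Among all genes, 3.82% had this arrangement of signs.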

How the results depend on the processing

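Leaving out line 10986 lowered the fl minus wt difference under 4-OHT for Meg3 (1.04 in place of 1.88) and Rian (0.35 in place of 1.10). It did so too for the Rian and AF357355 probe set (0.83 in place of 1.80) and Mir679 (0.67 in place of 0.97). For the Mirg and Mir410 probe set the difference was 0.16 in place of 1.06, and the fl change 0.01 in place of 0.56. Dlk1's difference under 4-OHT was 3.02 without line 10986, 3.24 without line 10977 and 2.95 without line 10980. Over 192 recomputed values of these genes, a sign turned in 8, all of them for Dio3 or for changes in the wt lines. Averaging all probe sets of a gene changed nothing, since each of the 6 genes had 1. The counts of called genes over the whole table also moved. Changed by 4-OHT in fl lines were 24 genes, against 8 with no level filter, 14 with the filter at the 50th percentile, 0 with all probe sets tested, 61 after quantile normalization, 3 with arrays centred on their median, and 0 to 440 leaving out each line, the 440 without line 10986. Without the replicate block this count was 28, and the count of genes whose change differed between genotypes was 1 in place of 0 (912 at an unadjusted p of 0.05), and 0 to 20 leaving out each line. Under 4-OHT, 101 genes differed between genotypes, against 31 with all probe sets tested, 66 with centred arrays, 0 to 51 leaving out each line, and 167 without the vehicle array of line 10986, an alternative chosen after seeing the data. Under vehicle, 3 genes differed, against 0 with no level filter, with the stricter filter, with all probe sets or after quantile normalization, 0 to 15 leaving out each line, and 6 without that array. The causes were not tested. The number of lines and signals near background, as for Dio3, limit what can be seen.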
